A study of Drosophila melanogaster with 3 samples.

Results

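Chromosome 4 of Drosophila melanogaster, the smallest, held 343 of the 30000 peaks in a list of binding regions of the GFP-tagged transcription factor shaven (sv), and 342 of them are described here. A member is a peak that the authors' pooled dm6 list places on chromosome 4, other than the one at the 3' end of sv, the tagged gene (chr4:1113191-1113514, signal 481). That peak alone was left aside, and the other peaks in sv were kept as members. Of the 342 members, 12 were in the authors' optimal set of 3823 peaks, the set that passed their threshold on reproducibility between replicates. The members come from a single group, sv_GFP larvae, with 3 biological replicates. These were whole third-instar larvae, males and females pooled, taken while wandering, of a transgenic line in which sv isoform RD carries GFP at its C-terminus. The sample descriptions name an antibody against GFP for the immunoprecipitation, while the antibody field names sv. A whole larva mixes all its tissues, so no member can be assigned to a cell type. The labels describe the line as stably expressing the fusion and do not say how much of the sv locus it carries, and reads from the native and the introduced sv sequence cannot be told apart in these lists.

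Shaven is a Pax-family DNA-binding protein, known for its part in the making of sensory bristles and, in the eye, of cone and pigment cells. Chromosome 4 is known for its unusual chromatin: most of its arm is rich in transposable elements and bound by the heterochromatin protein HP1a, yet it carries active genes, many of which are bound along their length by the chromosome-specific protein POF. Its genes include several developmental regulators, among them sv itself, the other Pax genes ey and toy, and the Hedgehog effector ci.

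The sequences at the strongest members are shown first, because the signal ranking and the annotation below refer to them. Each is the plus strand of the Release 6 assembly (dm6), written 5' to 3', with the summit base in capitals, for 50 bases on each side of the summit, less any base in an annotated untranslated region. The names are the genes with the nearest protein-coding start, and both Sox102F and gw have 2 members in the set, a near and a far summit.
zfh2, chr4:497840-497940: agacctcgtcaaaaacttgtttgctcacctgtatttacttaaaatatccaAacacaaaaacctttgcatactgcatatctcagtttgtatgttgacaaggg
lgs, chr4:424767-424867: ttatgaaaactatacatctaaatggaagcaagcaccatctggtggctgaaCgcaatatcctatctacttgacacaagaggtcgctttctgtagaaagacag
Sox102F near summit, chr4:807509-807609: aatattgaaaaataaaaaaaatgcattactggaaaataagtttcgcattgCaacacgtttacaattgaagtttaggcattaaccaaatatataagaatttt
PlexA, chr4:1027214-1027314: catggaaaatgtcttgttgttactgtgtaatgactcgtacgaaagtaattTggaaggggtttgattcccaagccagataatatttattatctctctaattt
gw near summit, chr4:659984-660062: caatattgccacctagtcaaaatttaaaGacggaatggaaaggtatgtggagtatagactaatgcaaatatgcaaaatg
fuss, chr4:982909-983009: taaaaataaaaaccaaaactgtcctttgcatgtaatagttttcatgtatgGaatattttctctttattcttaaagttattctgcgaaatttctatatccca
Sox102F far summit, chr4:807713-807813: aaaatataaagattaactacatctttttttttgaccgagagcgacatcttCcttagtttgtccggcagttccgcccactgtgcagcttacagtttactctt
gw far summit, chr4:660170-660270: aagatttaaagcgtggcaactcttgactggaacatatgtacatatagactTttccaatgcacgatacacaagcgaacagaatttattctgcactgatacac
A ninth sequence, 16 bp upstream of a start inside Cadps, ranked 8078 of the pooled list. It is shown because it was the only member found in all 3 replicates that held the palindrome TATCGATA, which is in capitals.
Cadps, chr4:1231817-1231882: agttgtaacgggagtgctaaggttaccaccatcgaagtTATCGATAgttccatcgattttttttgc
The 9 sequences are mostly A and T: the window at the near Sox102F summit had 23.8% G and C, and that at fuss 25.7%, while the highest of the 8 strongest was 40.6% at lgs. Over all 342 members the mean was 36.2%, against 35.2% for the whole chromosome and 41.0% at the peaks of the other arms.

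The strongest member lay 3920 bp upstream of zfh2 (FBgn0004607), which encodes a zinc-finger homeodomain protein of wing and leg development, in intergenic sequence with the summit at position 497890. Its signal in the pooled list, the authors' own value for each peak, was 186, which ranked 760 of 30000. Signal is compared only within a list, because the sources used here do not say how it scales with library size. In replicates 1, 2 and 3 its signal was 99.4, 33.4 and 61.7. These values ranked 572, 1701 and 585, so the peak was among the strongest 3823 of every replicate list and stood lower in replicate 2 than in the others.

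The next member by signal, at 184 and rank 781, lay in intergenic sequence 19094 bp downstream of the start of lgs (legless, FBgn0039907), which encodes the adaptor that joins beta-catenin to Pygopus in Wingless signalling. This summit was past the 3' end of lgs and 1250 bp upstream of the annotated start of a long non-coding RNA, lncRNA:CR43437, which was the nearest start of any kind. Its signal of 75.7, 53.4 and 59.4 in replicates 1 to 3 ranked 960, 694 and 632, the narrowest spread of ranks among the strongest 4 members.

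Sox102F (FBgn0039938), which encodes an HMG-box transcription factor of the SoxD group, had 2 optimal members just upstream of a start inside the gene. The near one, 212 bp upstream, had a pooled signal of 175 at rank 865, and 95.0, 41.2 and 32.2 in replicates 1 to 3 at ranks 611, 1153 and 2045. The far one, 416 bp upstream, had a pooled signal of 111 at rank 1984. The nearest summits to it had signals of 78.6, 11.9 and 32.2 in replicates 1 to 3. The value in replicate 3 belongs to the same peak as the near summit's, so these 2 members are not separate observations there. In replicate 2 the nearest summit to the far member ranked only 9403. The far member counts as found among that replicate's strongest 3823 through the near member's own peak, at rank 1153.

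PlexA (FBgn0025741), the receptor of a transmembrane semaphorin in axon guidance, had a member 163 bp upstream of its start with a pooled signal of 149 at rank 1194. Its signal was 72.3, 47.9 and 25.4 in replicates 1 to 3, and it stood highest in replicate 2, at rank 860, and lowest in replicate 3, at rank 3060. The gene gw (gawky, FBgn0051992), which encodes the GW182 protein of microRNA-mediated silencing, had 2 optimal members. They lay 29 bp and 237 bp upstream of a start inside the gene. The near one had a pooled signal of 137 at rank 1395 and 73.1, 43.9 and 38.0 in replicates 1 to 3. The far one had a pooled signal of 96.6 at rank 2443. In replicates 2 and 3 both gw members matched a single peak, with signals of 43.9 and 38.0, and they were resolved as 2 peaks only in replicate 1.

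A member between fuss (FBgn0039932), a Ski and Sno family gene, and toy (FBgn0019650), 1 of the Pax6 genes, had a pooled signal of 117 at rank 1817. It lay 4470 bp upstream of fuss and 6766 bp upstream of toy, and its signals of 61.6, 21.4 and 27.5 ranked 1435, 3553 and 2679 in replicates 1 to 3. The other Pax6 gene, ey (eyeless, FBgn0005558), had an optimal member 804 bp upstream of its start. That summit was also 830 bp upstream of myo (myoglianin, FBgn0026199), a TGF-beta family ligand, so it lay between 2 genes that point away from each other. Its pooled signal was 93.6 at rank 2588, with 53.9, 21.3 and 25.0 in replicates 1 to 3. All of these replicate peaks ranked within the strongest 3823.

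The remaining 3 optimal members each fell outside the strongest 3823 of at least 1 replicate. The member 22 bp upstream of pan (pangolin, FBgn0085432), the TCF factor of Wingless signalling, had a pooled signal of 94.4 at rank 2552, and its replicate ranks of 2783, 5638 and 6617 placed it in the strongest 3823 of replicate 1 only. The member 11395 bp upstream of dati (FBgn0262636), which encodes a zinc-finger protein, had a pooled signal of 88.0 at rank 2861 and replicate ranks of 5157, 2607 and 1738. The member in the 5' UTR of myo, 795 bp past its start, had the lowest signal of the 12, 82.9 at rank 3129, and its replicate ranks of 4593, 6119 and 2696 placed it in the strongest 3823 of replicate 3 only.

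**Figure D1:**
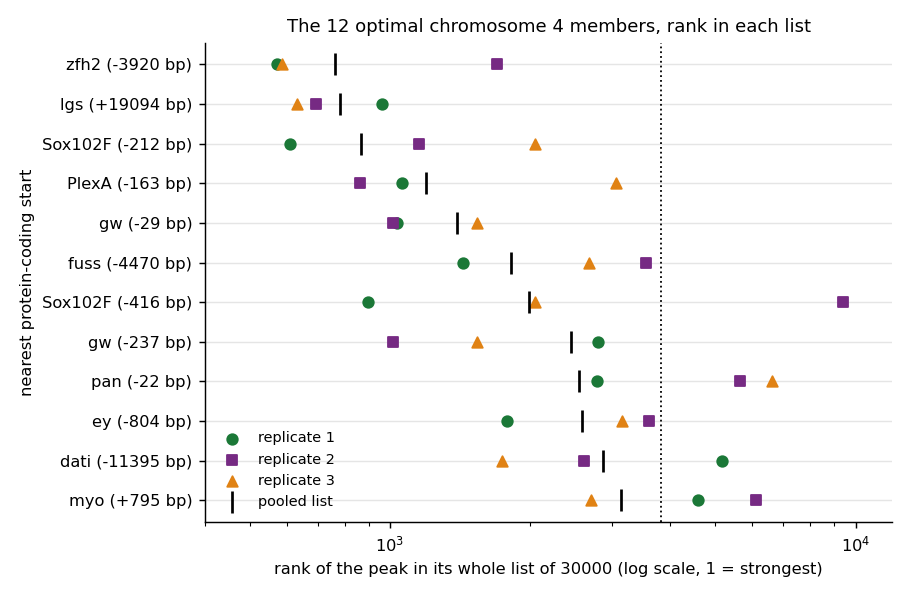
Rank by signal (log scale, 1 is the strongest of 30000) of each of the 12 optimal chromosome 4 members in the pooled list and in replicates 1 to 3, with 1 line of points per member and a dotted line at 3823, the size of the optimal set. Most points lie on the stronger side of that line, and the 6 on the weaker side belong to dati, pan, myo and the far Sox102F member.

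Of the 12 optimal members, 9 were found within 200 bp among the strongest 3823 peaks of all 3 replicates, beside 60.5% of the optimal peaks on the other arms. Among the 9, the far Sox102F and far gw members rested in replicates 2 and 3 on the same peaks as their near neighbours. Of the other 3, dati was found in 2 of these lists and pan and myo in 1 each. In the full replicate lists of 30000 peaks each, all 12 were found in all 3, against 96.6% on the other arms. The pooled list was made from the same replicates, so this recurrence describes how evenly the 3 contributed and is not an independent test. With 3.51% of its members in the optimal set, the chromosome stood below the other arms, where 12.8% of the pooled peaks were.

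The optimal set ends at a signal of 72.6, between the myo member and the strongest member left out, in an intron of Asator (FBgn0039908), a tau-tubulin kinase homologue. The Asator summit lay 706 bp upstream of the nearest start, with a pooled signal of 71.3 at rank 3942, and was found in all 3 replicates with signals of 18.6, 27.0 and 16.5. Close behind stood PlexB, another semaphorin receptor, with a summit 39 bp past its start at rank 4042, and CaMKII, the calcium- and calmodulin-dependent kinase known from synaptic plasticity, with a summit 222 bp upstream at rank 4046. PlexB was found in all 3 replicates, with signals of 31.9, 12.9 and 18.9. CaMKII was found in replicates 1 and 3 only. The authors' −log10 q-value did not separate these 3 from the optimal members: 17 members carried its highest value, 3.96, and 5 of the 17 were outside the optimal set.

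Among the 30 strongest members, down to a signal of 47.8, 23 were found in all 3 replicates and the other 7 in 2. At promoters, meaning within 500 bp of an annotated start, were 18 of the 30, while 7 were intergenic, 4 were in introns and 1 was in a 5' UTR. The promoter summits included those of ci, 70 bp past a start inside the gene at rank 5688, and of CaMKI at rank 5736. They also included those of CG46466 at rank 4208, of the mitochondrial membrane protein gene Mpv17 at rank 4736, and of anne at rank 6455. Others were at Arf4, which encodes a small GTPase of vesicle traffic, at rank 5539, at the ribosomal protein gene RpS3A, 17 bp upstream at rank 6442, and at apolpp, the precursor of the lipid-carrying apolipophorins, at rank 6739. A summit 52 bp upstream of CG11076, at rank 5095, also lay inside ATPsynbeta, which encodes a subunit of the mitochondrial ATP synthase, 55 bp upstream of a start within that gene. RpS3A and anne were not found in replicate 1, and Arf4 was not found in replicate 3. The 2 intergenic summits beyond the optimal members lay 561 bp upstream of Asator at rank 4497 and 8913 bp upstream of dati at rank 5969. Intron summits were those of zfh2 at rank 5898, of the zyxin gene Zyx at rank 6152 and of the DNA glycosylase gene Tdg at rank 6466, beside the Asator one.

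**Figure D2:**
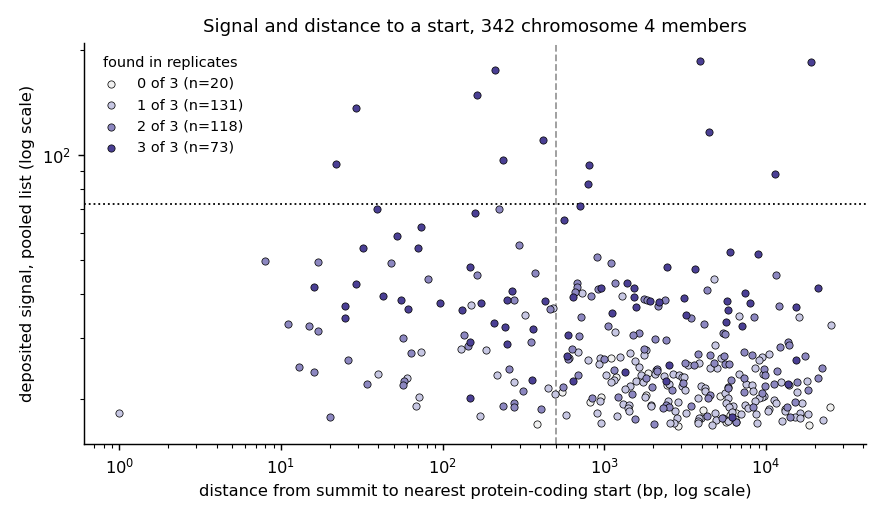
Pooled signal (log scale) of the 342 members by distance to the nearest protein-coding start (bp, log scale), shaded by the number of replicates in which each was found, with the promoter limit of 500 bp dashed and the end of the optimal set at a signal of 72.6 dotted. Optimal members lie both within 500 bp of a start and several kb away, and the weakest members are spread over all distances.

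With the sv 3' peak left aside, chromosome 4 held few strong peaks for its length and slightly more weak ones. The replicate counts also leave out the peak within 200 bp of that summit, and nothing was left out of the other arms. With it, the whole replicate lists held 316, 338 and 350 chromosome 4 peaks, and without it 315, 337 and 349. In the strongest 3823 peaks of the replicates, chromosome 4 had 9.64 ± 2.23 peaks per Mb of its length (SD, n = 3), from 10, 13 and 16 peaks, against 28.7 on the other arms together (X, 2L, 2R, 3L and 3R). In the strongest 15000 it had 109.5 ± 8.57 per Mb, against 112, and in the whole lists 248 ± 12.8, against 224. Over the whole lists it was higher than the other arms in all 3 replicates, with 234, 250 and 259 peaks per Mb in replicates 1 to 3 and a mean difference of 23.7 per Mb (SD 12.9). An exact two-sided paired permutation test over the 3 replicates gave p = 0.25, which stayed 0.25 after Benjamini-Hochberg adjustment over 3 comparisons and is the smallest p that 3 pairs can give. The direction depends on how deep the list is read: the difference was −19.1 per Mb in the strongest 3823, lower in 3 of 3 replicates (exact permutation p = 0.25), and −2.52 in the strongest 15000, lower in 2 of 3 (exact permutation p = 0.5). The depth of 3823 was chosen after the values were seen.

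**Figure D3:**
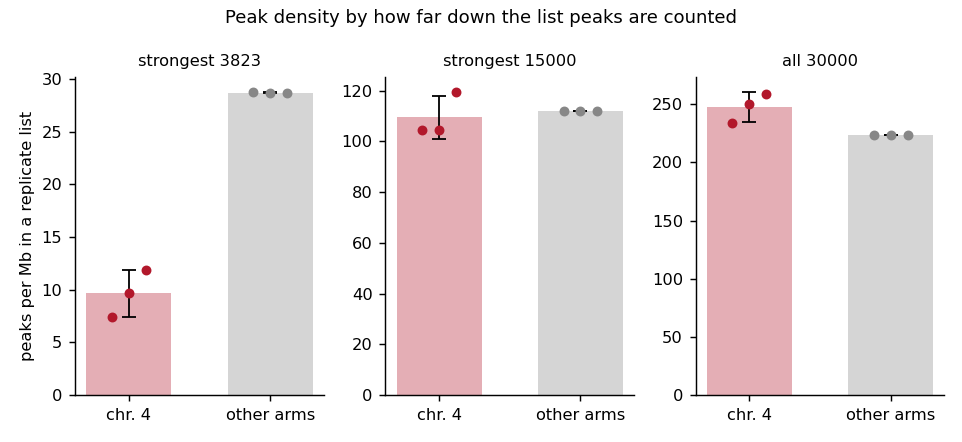
Peaks per Mb on chromosome 4 and on the other arms in the strongest 3823, 15000 and 30000 peaks of each replicate list, as means (bars) with SD over 3 replicates (points), each panel with its own scale from 0. Chromosome 4, with the sv 3' peak left aside, lies below the other arms at 3823, beside them at 15000 and slightly above them at 30000.

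In each replicate list, chromosome 4 peaks were also less often in the stronger part. Of its peaks, 44.2% ± 2.19 had a signal above the median of the list, against 50.1% ± 0.0246 on the other arms (SD, n = 3 each), a difference of −5.82 percentage points that had the same sign in 3 of 3 replicates (exact paired permutation p = 0.25, adjusted 0.25). The other arms make up nearly all of each list, so their share and its small SD are largely fixed by the cut at the median. The pooled members had a median signal of 24.2, against 27.1 on the other arms, and 38.9% of them were in the weakest 10000 of the list, against 33.3%.

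Within 200 bp, 73 of the 342 members were found in all 3 replicates, which is 21.3%, against 31.9% of the pooled peaks on the other arms. A further 118 were found in 2, 131 in 1 and 20 in none. By replicate, 208 members were found in replicate 1, 182 in replicate 2 and 196 in replicate 3, or 60.8%, 53.2% and 57.3%, where the other arms had 68.0%, 60.3% and 62.6%. Recurrence followed rank: below the 12 optimal members, 40 of 70 members down to rank 10000 were found in all 3, then 18 of 127 between there and rank 20000 and 3 of 133 in the last 10000. These shares of 57.1%, 14.2% and 2.26% stood beside 64.9%, 15.9% and 2.65% on the other arms. Had the members recurred at the other arms' rate for each range of ranks, 80.7 of them would have been found in all 3, or 23.6%.

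The signals of the replicates ranked the members alike only in part. Across the 109 to 114 members found in both replicates of a pair, Spearman's rho between the signals was 0.47 for replicates 1 and 2, 0.47 for replicates 1 and 3 and 0.36 for replicates 2 and 3. Outside the optimal set, over 97 to 102 members, it was 0.28, 0.27 and 0.16 for the same pairs. These are correlations across peaks, which are not independent. Neighbouring members add to that: 130 of the 342 overlap another member, they merge into 275 separate intervals, and 14, 34 and 30 members shared their matched peak with another member in replicates 1, 2 and 3. In the other direction, 102, 160 and 162 peaks of chromosome 4 in replicates 1 to 3 had no member within 200 bp, the strongest of them at ranks 7506, 3757 and 4220.

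**Figure D4:**
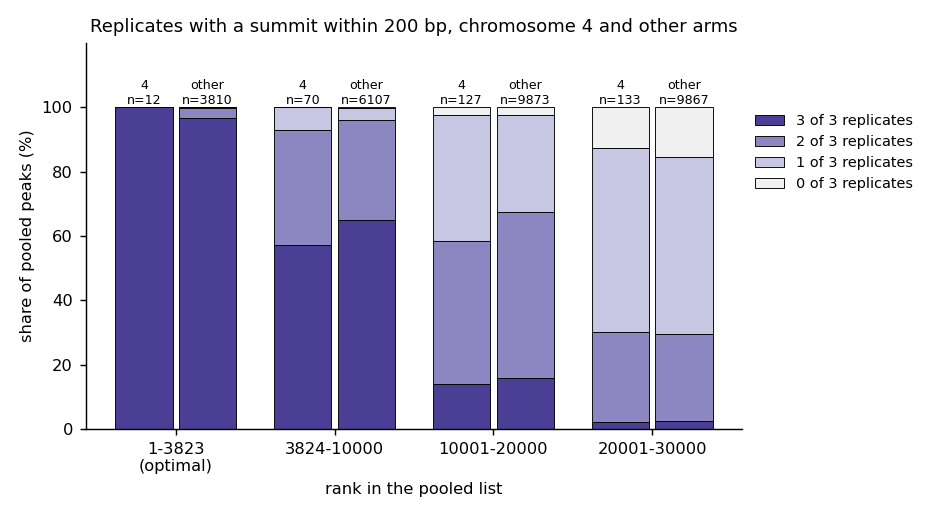
Share of pooled peaks (%) with a summit within 200 bp in 3, 2, 1 or 0 replicates, as stacked bars by range of rank in the pooled list, with chromosome 4 left of the other arms and the number of peaks over each bar. The darkest part, found in all 3, shrinks with rank in both, and at ranks 3824 to 10000 it is 57.1% on chromosome 4 and 64.9% on the other arms.

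A replicate peak could match several members. Of the 73 members found in all 3 replicates, 8 rested in at least 1 replicate on a peak that a stronger member also matched. Without them 65 remained, or 19%, where the same count on the other arms left 28.1%. The 3 members beyond rank 20000 that were found in all 3, named here after their values were seen, were among these 8. A zfh2 intron member at rank 27608 matched, at 194, 190 and 182 bp, the same 3 replicate peaks as the stronger zfh2 intron member at rank 5898. A member 13766 bp downstream of the start of lgs, at rank 20266, shared its peaks in replicates 2 and 3 with the member at rank 13921. A member inside ATPsynbeta at rank 23054 shared its peak in replicate 3 with the CG11076 member at rank 5095.

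Promoters held 92 of the 342 members, which is 26.9%, where 10.7% of the bases of chromosome 4 lie within 500 bp of a start. Introns held 128, or 37.4%, against 42.6% of bases, coding exons 47, or 13.7%, against 18.0%, intergenic sequence 46, or 13.5%, against 18.2%, and 3' UTRs 15, or 4.39%, against 7.96%. Another 8 members were in 5' UTRs and 6 in other exons. Of the promoter members, 34 of 92 were found in all 3 replicates, or 37%, against 13 of 46 in intergenic sequence, 16 of 128 in introns, 2 of 47 in coding exons and 3 of 15 in 3' UTRs. The small classes of 5' UTRs and other exons had 3 of 8 and 2 of 6. Signal moved the same way, with a median of 31.5 for promoter members and 22.6 for those in introns, and its part in the recurrence was not tested.

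The promoter share fell with rank, with 6 of the 12 optimal members, then 47.1%, 26.0% and 15.0% in the same 3 ranges of rank, against 58.9%, 44.2%, 28.1% and 20.5% on the other arms. The median distance to the nearest protein-coding start grew from rank range to rank range, at 606, 679, 1816 and 4197 bp. None of the 12 optimal members lay in an intron and 5 were intergenic, whereas 29.0% of the optimal peaks on the other arms were in introns and 9.9% were intergenic. In the replicate lists, 27.4% ± 1.43 of chromosome 4 peaks were at promoters, against 31.2% ± 0.716 on the other arms (SD, n = 3 each). The difference of −3.79 percentage points was below 0 in 3 of 3 replicates (exact paired permutation p = 0.25, adjusted 0.25).

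Transposable elements, which cover 24.8% of the bases of the chromosome in 566 annotated copies, held 67 of the 342 members, or 19.6%. The share was 17.5% ± 1.24 in the replicate lists (SD, n = 3). None of the 12 optimal members and none of the 30 strongest lay in one. The sources used here do not say how reads from repeated sequence were placed, and its part in these counts was not tested. Of the families, INE-1 and 1360 were picked out after their counts were seen. INE-1, a short non-autonomous element that is abundant on this chromosome, held 45 members, or 13.2%, where it covers 7.22% of the bases, and 11.4% ± 1.51 of the replicate peaks. Of the 45, 5 were found in all 3 replicates, and the strongest, in an intron of sv, ranked 7506. Among all members in elements, 4 of 7 at ranks 3824 to 10000 were found in all 3, or 57.1%, beside 57.1% outside elements. At ranks 10001 to 20000 it was 6 of 34, or 17.6%, beside 12.9%, and in the last 10000 it was 0 of 26, beside 2.8%. The P-like element 1360 held 13 members, or 3.80%, beside 3.79% of the bases. Of these, 3 were found in all 3 replicates. The strongest of them, at rank 6780, lay 2436 bp upstream of Arl4. It was classed as promoter, 14 bp past the start of a long non-coding RNA, lncRNA:CR46488.

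The members were spread along the arm, 12 to 50 in each of the first 13 blocks of 100 kb. The block from 1000001 to 1100000, which holds PlexA, Mpv17, ATPsynbeta, CaMKII and part of sv, had the most, 50. The last block, from 1300001 to the end at 1348131, had none and is 95.4% transposable elements. The median distance from a member to the next was 926 bp, and the longest gap was 41440 bp.

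Of the 80 protein-coding genes on the chromosome, 77 held a member in the gene or within 2 kb upstream, which is 96.2%, where 71.5% of the protein-coding genes of the other arms held a pooled peak. The genes of chromosome 4 are longer, with a median span of 10.1 kb against 2.16 kb, so the shares are not of like targets. The number of genes with a peak was 76, 76 and 77 in replicates 1 to 3. With members found in all 3 replicates alone, 44 of the 80 genes remained, and 30 of them had such a member within 500 bp of a start. The share of genes with an optimal member was lower than elsewhere: 6 of 80, or 7.5%, against 27%. These 6 were Sox102F, PlexA, gw, pan, ey and myo, while the optimal members near zfh2, lgs, fuss and dati lay outside the reach of any protein-coding gene.

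The gene with the most members was sv itself, with 17, none of them optimal. The strongest lay 8 bp upstream of the annotated start, with a signal of 49.7 at rank 6379, and was found in replicates 1 and 2. Of the 17, 2 were found in all 3 replicates: a promoter summit 209 bp past the start at rank 11189, and an intron summit at rank 8842. This promoter summit matched the same peaks in replicates 1 and 2 as the stronger one 8 bp upstream. The stronger one missed replicate 3 because the nearest summit there lay 236 bp away, so the 2 promoter members are not separate observations. The replicate lists had 14, 13 and 15 peaks in sv, so the number of peaks was much the same although only 2 positions recurred in all 3.

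Sox102F and CaMKII followed with 13 members each, of which 4 and 2 were found in all 3 replicates. The giant muscle protein gene bt (bent, projectin) held 12 members over 52.1 kb, the longest span among the genes named here, and none of the 12 was found in all 3. Next came ey and Asator with 11 each, of which 4 and 3 were found in all 3. Longer genes held more members, with Spearman's rho of 0.57 between span and count across the 80 genes, a description over genes that are not independent of each other. Per length with the 2 kb upstream, the highest count was that of the small gene Mpv17, at 14.9 members per 10 kb from 4 members. ATPsynbeta followed with 12.9 from 7 members, of which 4 were found in all 3 replicates, then CG11076 with 9.88 from 4 and myo with 9.50 from 7, of which 5 were found in all 3. The counts of Mpv17, CG11076 and ATPsynbeta share members, since these neighbours overlap in reach.

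**Figure D5:**
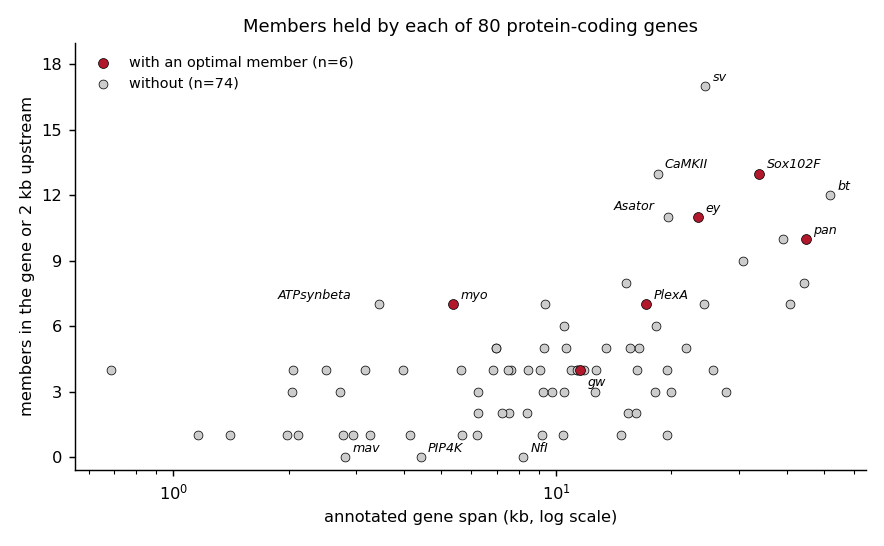
Number of members held by each of the 80 protein-coding genes against the annotated span of the gene (kb, log scale), with the 6 genes that hold an optimal member in red. The count reaches 17 at sv, and 3 genes, mav, PIP4K and NfI, lie at 0.

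The genes were read in 4 lists by role, beside the 96.2% of all 80 genes that held a member and the 55% that held one found in all 3 replicates. Of 16 transcription regulators, 15 held a member and 8 held one found in all 3: ci, pan, ey, sv, zfh2, Sox102F, lgs and Hcf. The Polycomb-group DNA-binding factor pho held 1, found in a single replicate, and the other Pax6 gene, toy, held 6, the strongest at its promoter at rank 12641, with none found in all 3. NfI, a nuclear factor I homologue, held none and had 2 peaks in replicate 3 alone. Of 12 signalling and guidance genes with a match on the chromosome, 10 held a member and 8 held one found in all 3. These 8 were the activin ligand Actbeta, myo, the ephrin receptor Eph, PlexA, PlexB, CaMKI, Dyrk3 and Asator. The TGF-beta ligand mav and the lipid kinase PIP4K held none, although each had 1 peak in replicate 1 and 1 in replicate 2.

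All 10 neuronal and membrane genes held a member, 8 held one found in all 3 and 0 held an optimal one, where 7.5% of all 80 genes did. An optimal member was held by 3 of the 16 transcription regulators and 2 of the 12 signalling and guidance genes. In the list of translation, energy and housekeeping it was 1 of 12. At a share of 7.5%, a list of 10 genes is too short to read its 0 as a trait. The strongest members of the neuronal and membrane genes were at CG46466 beside Slip1, at Arf4 beside the cadherin gene Cals, and inside Cadps, which encodes a factor of dense-core vesicle release. The last lay 16 bp upstream of a start inside the gene, at rank 8078. The 2 without a member in all 3 were the glutamate receptor gene mGluR and Cals. All 12 genes of translation, energy and housekeeping held a member, and 5, or 41.7%, held one found in all 3: eIF4G1, gw, ATPsynbeta, Rad23 and Arl4. The median gene spans of the 4 lists, in the order given, were 16.9, 7.92, 17.2 and 3.35 kb. The part of span in these counts was not tested. RpS3A and ND-49, a subunit of respiratory complex I, each held 1, and that of RpS3A was found in replicates 2 and 3.

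Short sequence motifs were sought within 50 bp of each summit, on both strands, as a description: a match is not a binding site, and the absence of one says only that these letters are not in the window. None of the 12 optimal members held any of the 11 motifs, and the most frequent of these, CAGCTG, was in only 2.92% of all 342 members. The share of members with any of the motifs was not computed, so this absence is not read as a trait of the strong members. TATCGATA, the palindrome known as the DREF binding sequence, was in 8 members, or 2.34%, against 1.20% of the peaks on the other arms, and in 0.926% of all windows of that length on chromosome 4. Its 8 members were nearest to the starts of Cadps (2 of them), ci, Ank, MED26, CaMKI, Rnf11 and CG11360, and the Cadps member shown above was the only 1 of them found in all 3 replicates. GTCACGC, a paired-domain core, was in 3 members, or 0.877%, against 0.583% on the other arms and 0.655% of chromosome 4 windows. GGTCACAC, part of a motif frequent in fly core promoters, was in 1 member, or 0.292%, at Rad23, which encodes a nucleotide excision repair protein. Its share was 0.883% on the other arms and 0.146% of chromosome 4 windows. CAGCTG, an E-box, was in 10 members, or 2.92%, against 5.24%, and in 2.18% of chromosome 4 windows. The remaining 7 were GCCATTT in 5 members, GAGAGAG and TGTGGTT in 3 each, TGAGTCA in 2, CACACACA and CAGGTAG in 1 each, and AACCGGTT in 0. The shares of these 7 ran from 0% to 1.46% of the members, against 0.196% to 2.38% of the peaks on the other arms, and each was lower on chromosome 4. In all windows of chromosome 4 the shares of the same 7 ran from 0.0558% to 1.55%.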

How the data were processed

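Peak lists of an anti-GFP ChIP-seq experiment on 3 replicates of sv-GFP larvae were used as deposited. Per the labels, chromatin was sonicated to 200-800. Per the deposited file manifests, the authors made relaxed lists of peaks and background for each replicate and for the pooled alignments against a control, and an optimal set thresholded by IDR (irreproducible discovery rate). No aligner, caller or threshold is named in the sources used here. Each deposited peak carries the authors' signal value and −log10 q-value. Signal ranked peaks within a list, and q-values, which reach a ceiling, ranked none. Read counts were not used, so depth is unknown and intervals for counting error are left out. The control was not used here.

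Summits are the deposited offsets, counted from 1. A summit was found in a replicate when 1 lay within 200 bp. Annotation was Ensembl 115 on BDGP6.54 and sequence the NCBI Release 6 assembly, on the coordinates of dm6: 0 dm6 peaks ended past an arm. Peaks off the 6 main arms were left out of arm comparisons, and so was the sv 3' peak in every list. Each summit got a single class: promoter (within 500 bp of any non-transposon start) came before untranslated, coding and other exons, then intron, then intergenic. Of the listed gene names, 2 matched through older symbols (Arf4, Tdg) and 1, Galphaf, did not match. Densities and shares were compared by exact two-sided paired permutation over the 3 replicates, with Benjamini-Hochberg adjustment and a threshold of 0.05. P-values measure only the spread between these replicates. Matching and tests were tested on simulated data. Alternatives were other distances, overlap, cuts, promoter widths, the dm3 lists, other arms without X, and leaving out each replicate. Named genes are those of the optimal and of the 30 strongest members, the 5 genes with most members, and the lists. Members, lists and motifs were chosen with earlier results of these data known. Python 3.11.15, pandas 2.3.3, NumPy 2.4.6 and SciPy 1.17.1 were used.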

Additional observations from a re-analysis of the deposited data

How the results depend on the processing

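The 73 members found in all 3 replicates became 41 at 100 bp, 117 at 500 bp, 116 by an overlap of 1 bp and 34 in replicate lists cut at 15000. They were 68 of 319 members in the dm3 lists, and 65 with each replicate peak matched by its strongest member only, an alternative added after seeing the data. Without 1 replicate, 109 to 114 members were found in both others. The promoter share of 26.9% was 16.4% at 200 bp, 39.8% at 1000 bp, 23.7% with protein-coding starts only and 46.6% among the 131 stronger members, and 40.4% to 42.1% of the members found in both other replicates were at promoters when 1 replicate was left out. Genes with a member numbered 77, and 44 with members found in all 3. The density difference of 23.7 peaks per Mb turned round to −2.52 in the strongest 15000 and to −19.1 in the strongest 3823, a depth chosen after seeing the data, and was 17.9 to 30.7 without 1 replicate. In all, 33 of 49 alternatives left a result in its direction and range. The mean differences in promoter share (−2.60 to −5.14) and in share above the median signal (−4.60 to −6.77) stayed below 0 under each alternative. For promoter share in the strongest 15000, chromosome 4 was lower in 2 of 3 replicates and higher in 1 (exact paired permutation p = 0.5). The share above the median was not computed in the strongest 15000, which hold no peak below it. With 3 pairs no test could pass 0.05, and with read depth unknown, weak members cannot be told from the background that these lists include. The tests paired chromosome 4 with the other arms within each replicate. There is 1 group, so replicate numbers pair no samples across groups.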
